A study of Sus scrofa with 33 samples.

Results

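FKBP5, ZBTB16, KLF9, SGK1, TSC22D3 and DUSP1 are 6 genes whose transcription is raised by glucocorticoid hormones in many tissues, and they were followed here in the pituitary of growing pigs kept in thermoneutral conditions (TN) or under heat stress (HS). The members were every array probe carrying one of these symbols as its gene name or in its description, which gave 6 of 10198 named genes and 22 of the 45667 probes of the deposited table. FKBP5 had 5 probes, ZBTB16 had 1, KLF9 had 11, SGK1 had 2, TSC22D3 had 1 and DUSP1 had 2. All 22 were well above background on all 33 arrays. The TSC22D3 probes carried no symbol and were found by the protein name in their description. A second TSC22D3 probe, A_72_P310898, was on the array but outside the deposited table, and it was well above background on 9 of 33 arrays.

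The pigs were castrated males of 3 genetic groups, Large White (LW), Creole (CR) and their F1 cross, with 11 arrays each and 1 pig per array. There were 5 LW TN, 6 LW HS, 5 CR TN, 6 CR HS, 6 F1 TN and 5 F1 HS arrays, 16 TN and 17 HS in all. Pigs entered the climatic room at 11 weeks of age, had 10 days of adaptation and were then held at 24 °C for 9 days. The TN animals were killed ahead of the rise in temperature and the HS animals up to 5 days into it, so day of slaughter and age cannot be told apart from temperature. The paper also reports that pigs ate less under heat, and feed intake cannot be told apart from temperature either. The labels gave 30 °C for HS and the protocol text 32 °C. Littermates in blocks of 4 and pens of 3 pigs linked animals, and these links are not in the labels used here, so the p-values treat pigs as independent. The tissue was described as anterior lobe, and its hormone transcripts were well above background on all arrays, with TN means of 19.02 for GH1, 18.84 for PRL and 19.01 for POMC. The posterior-lobe hormone transcripts AVP (TN mean 16.98) and OXT (15.70) were also well above background on all arrays.

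Cortisol, the main glucocorticoid of the pig, enters cells and binds the glucocorticoid receptor encoded by NR3C1. In the unbound state the receptor is held by HSP90 and its partner proteins. Once bound it moves to the nucleus and raises or lowers the transcription of target genes. In the corticotrophs of the anterior lobe it restrains POMC, the precursor of adrenocorticotropic hormone, which closes the feedback loop of the stress axis. FKBP5 is a co-chaperone that lowers the hormone affinity of the receptor and is itself induced by it, a short feedback loop inside the cell. ZBTB16 and KLF9 are zinc-finger transcription factors, SGK1 is a kinase acting on ion transport, TSC22D3 is the anti-inflammatory protein GILZ, and DUSP1 is a phosphatase that switches off MAP kinases. DUSP1 is also an immediate early gene that many other stimuli induce. Cortisol itself was not analysed here.

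Probe sequences are shown for FKBP5, whose probes differed in their results, and for ZBTB16. The part of probe position or sequence in those differences was not tested. The 4 FKBP5 probes below each have a forward reading frame with no stop codon, whereas the brightest FKBP5 probe has no such frame. These 4 departed from it in the comparisons of genetic groups. An open frame in 60 bases does not by itself mark coding sequence. Most member probes have one, among them KLF9 A_72_P645327, which starts at base 4256 of its record. The ZBTB16 probe is shown because it was the only measurement of that gene. All are 60 bases long, run 5′ to 3′ as printed on the array design, and carry no capitals because no base is singled out.
FKBP5 O10720: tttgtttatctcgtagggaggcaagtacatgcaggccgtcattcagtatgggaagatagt
FKBP5 A_72_P719403: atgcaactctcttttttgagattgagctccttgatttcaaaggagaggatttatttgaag
FKBP5 A_72_P476959: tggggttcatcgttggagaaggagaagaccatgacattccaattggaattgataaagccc
FKBP5 A_72_P078706: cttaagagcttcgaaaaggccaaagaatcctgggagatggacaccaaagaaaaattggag
ZBTB16 O11027: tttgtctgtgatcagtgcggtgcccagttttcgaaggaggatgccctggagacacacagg
On the FKBP5 transcript model of the array design, A_72_P719403 started at base 614, A_72_P476959 at base 797 and A_72_P078706 at base 979.

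Before the results, 4 arrays need naming. The title of LW HS 3 says Large White and its breed field says Creole. It was analysed by its title, and values that moved most with it are also given without it. LW TN 2, CR TN 1 and F1 TN 1 each lay apart from their group for at least 1 of the 6 genes, and all were on slide 2 of the 5 slides. All arrays were scanned on 1 day, and slide and row on the slide were tested as technical batches.

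All expression values are log2 of quantile-normalized intensity. A probe's level was compared only with its own level on other arrays, because the brightness of different probes is not on a common scale. Summed intensities of marker lists, which add different probes, were likewise compared only between arrays. Each gene is represented by its brightest probe unless another is named. HS minus TN differences come from a linear model with genetic group and temperature over the 33 arrays. The 6 genes were chosen by name, but with their HS minus TN values in these same arrays known. These differences are given as a description, with a standard error (SE) and without a p-value.

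All 6 genes were lower on average in HS than in TN. Of the 22 probes, 21 had an HS minus TN difference below 0, with a median of -0.24 and a range of -0.39 to 0.067. Over all 45667 probes the median was 0.0092 and 45.3% were below 0. Over the brightest probes of the 10198 named genes the median was 0.018 and 40.6% were below 0. No member probe (0 of 22) passed a Benjamini-Hochberg adjusted limma p of 0.05, against 0.0219% of all probes. At an unadjusted p under 0.05 there were 14 of 22, against 8.77% of all probes, and nothing is read from either count because the rule used this contrast. With slide as a block in the fit the adjusted count was not 0. It was 5 of 22 with slide fixed, where 92 of all 45667 probes passed, and 4 of 22 with slide random, where 58 did, and nothing is read from these either. In whole tissue, fewer cells of a type and less RNA per cell cannot be told apart.

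**Figure D1:**
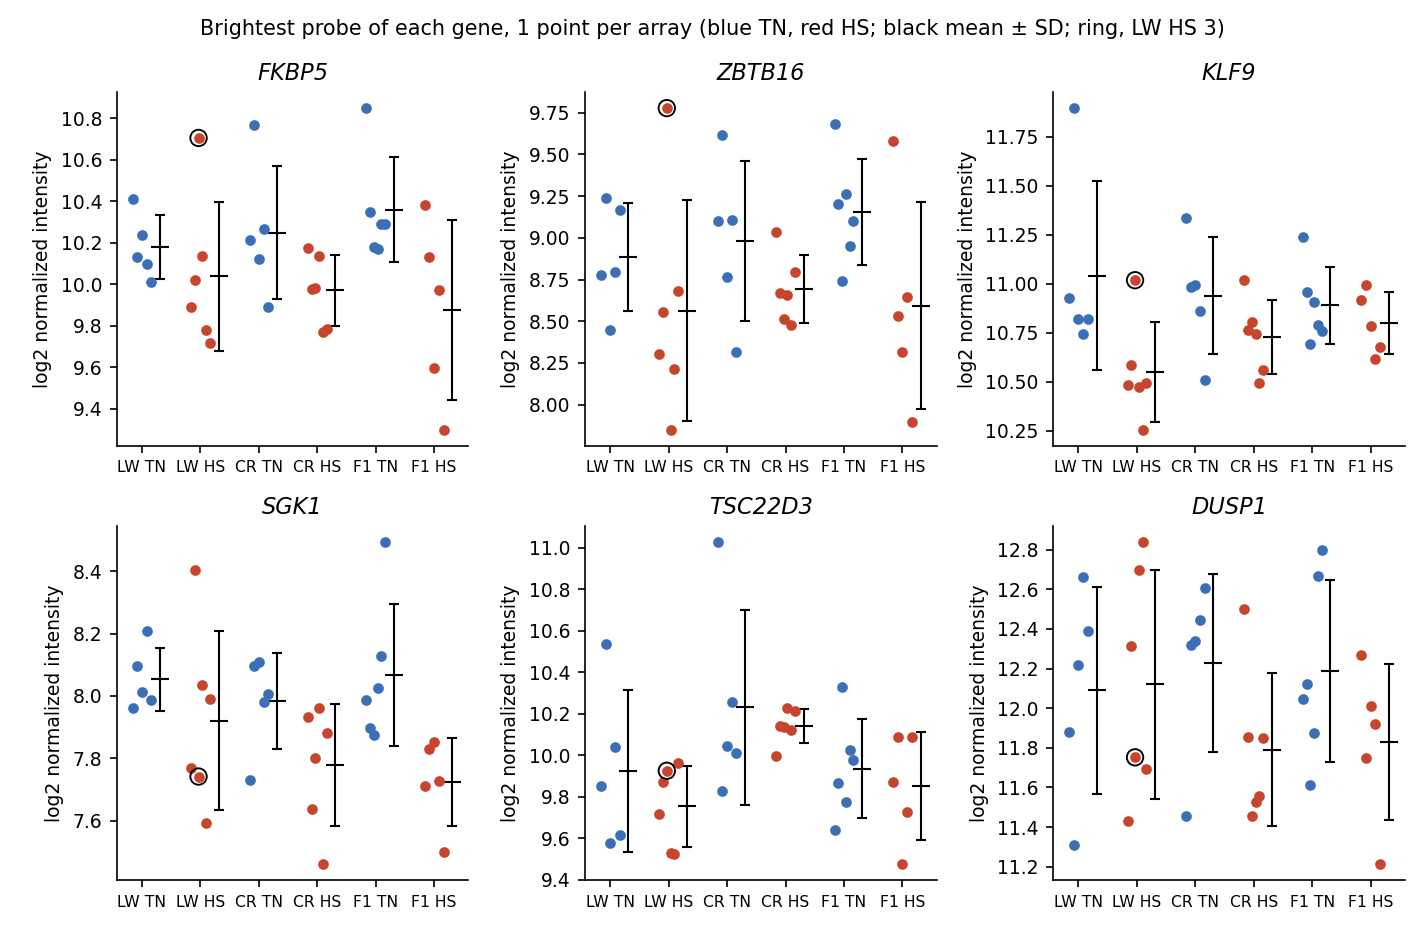
Log2 normalized intensity of the brightest probe of FKBP5, ZBTB16, KLF9, SGK1, TSC22D3 and DUSP1 on 33 arrays, by genetic group and temperature, with 1 point per array and black marks for the group mean ± SD. The TN (blue) and HS (red) arrays of a genetic group overlap in 17 of the 18 gene-by-group panels (no overlap in 0.612% over all probes and genetic groups), and LW HS 3 (ringed) is the highest HS array for FKBP5 and ZBTB16.

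FKBP5, the co-chaperone, ranged from 9.89 to 10.85 with a median of 10.23 over the 16 TN arrays. Over the 17 HS arrays it ranged from 9.30 to 10.71 with a median of 9.98. The ranges overlapped, but 15 of 17 HS arrays read less than the mean of the TN arrays of the same genetic group, here called the own-group TN mean. The mean was 10.27 ± 0.25 (SD) in TN and 9.97 ± 0.32 in HS, a difference of -0.30 (SE 0.099) or 0.81 times the TN level. The 2 HS arrays above it were LW HS 3 at 10.71 and F1 HS 1 at 10.38. Without LW HS 3 the difference was -0.35 (SE 0.09). The other 4 FKBP5 probes gave -0.29 to -0.18, with 12 to 15 of 17 HS arrays below the own-group TN mean.

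ZBTB16, a zinc-finger transcriptional repressor, had an HS minus TN difference of -0.39 (SE 0.15), further below 0 than the brightest probes of the other genes. That order depended on the fit. With array weights ZBTB16 gave -0.24 (SE 0.14), beside -0.35 for DUSP1 (SE 0.14) and -0.26 for FKBP5 (SE 0.092). TN arrays ranged from 8.31 to 9.68 with a median of 9.10, and HS arrays from 7.85 to 9.78 with a median of 8.56. The lowest and the highest of all 33 values were both in HS. LW HS 3 gave 9.78 and F1 HS 1 gave 9.58, while the other HS arrays lay at or below 9.03. Without LW HS 3 the difference was -0.47 (SE 0.13). The mean was 9.02 ± 0.37 in TN and 8.62 ± 0.50 in HS, with 14 of 17 HS arrays below the own-group TN mean.

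KLF9, a Krüppel-like zinc-finger factor, ranged from 10.51 to 11.90 in TN with a median of 10.88. In HS it ranged from 10.25 to 11.02 with a median of 10.68. The mean was 10.95 ± 0.32 in TN and 10.69 ± 0.22 in HS, a difference of -0.26 (SE 0.095), and 14 of 17 HS arrays read below the own-group TN mean. LW TN 2, at 11.90, stood above every other array, and without it the difference was -0.19 (SE 0.073).

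The 11 KLF9 probes were not alike. The 7 probes that start past base 2000 of their KLF9 messenger record had differences of -0.26 to -0.21. The 3 that start before base 500 had -0.098 to 0.067, at mean levels of 6.09 to 6.38. These were also the 3 dimmest KLF9 probes, so probe position and brightness cannot be told apart here. The remaining probe, O14257, has no position in the array design and gave -0.23 (SE 0.064). The exception to the direction of all member probes was A_72_P070711, which starts at base 170. It went from 6.34 ± 0.27 in TN to 6.41 ± 0.24 in HS, and 6 of 17 HS arrays read below the own-group TN mean. Several KLF9 probes share sequence and are not separate measurements. A_72_P672707 shared 37 bases with A_72_P601538 and 29 with A_72_P645327, which shared 26 with A_72_P503046. O14257 shared 11 bases with A_72_P157696 on the opposite strand, and which strand each reports was not settled here.

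SGK1, the serum- and glucocorticoid-regulated kinase, was lower in HS on nearly every array. TN arrays ranged from 7.73 to 8.49 with a median of 8.01, and HS arrays from 7.46 to 8.40 with a median of 7.80. The difference was -0.23 (SE 0.069). LW HS 2, at 8.40, was the exception among the HS arrays, and the other 16 of 17 read below the own-group TN mean. Its second probe, O10149, ranged from 7.37 to 8.06 in TN and from 6.86 to 7.73 in HS. That probe had the larger difference, -0.33 (SE 0.072), again with 16 of 17 HS arrays below.

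TSC22D3 had the smallest difference. Its TN arrays ranged from 9.58 to 11.03 and its HS arrays from 9.48 to 10.23. The mean was 10.03 ± 0.37 in TN and 9.92 ± 0.25 in HS, a difference of -0.12 (SE 0.094), with 13 of 17 HS arrays below. The TN mean rested on single arrays. Without CR TN 1, at 11.03, the difference was -0.057 (SE 0.082), and without LW TN 2, at 10.54, it was -0.068 (SE 0.088). With array weights it was -0.033 (SE 0.081).

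DUSP1, the MAP kinase phosphatase, varied widely within both temperatures, with an SD of 0.45 in TN and 0.46 in HS. TN arrays ranged from 11.31 to 12.80 with a median of 12.27, and HS arrays from 11.21 to 12.84 with a median of 11.85. The difference was -0.26 (SE 0.16), and 12 of 17 HS arrays read below the own-group TN mean. Its second probe gave -0.29 (SE 0.15) with 13 of 17 below.

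**Figure D2:**
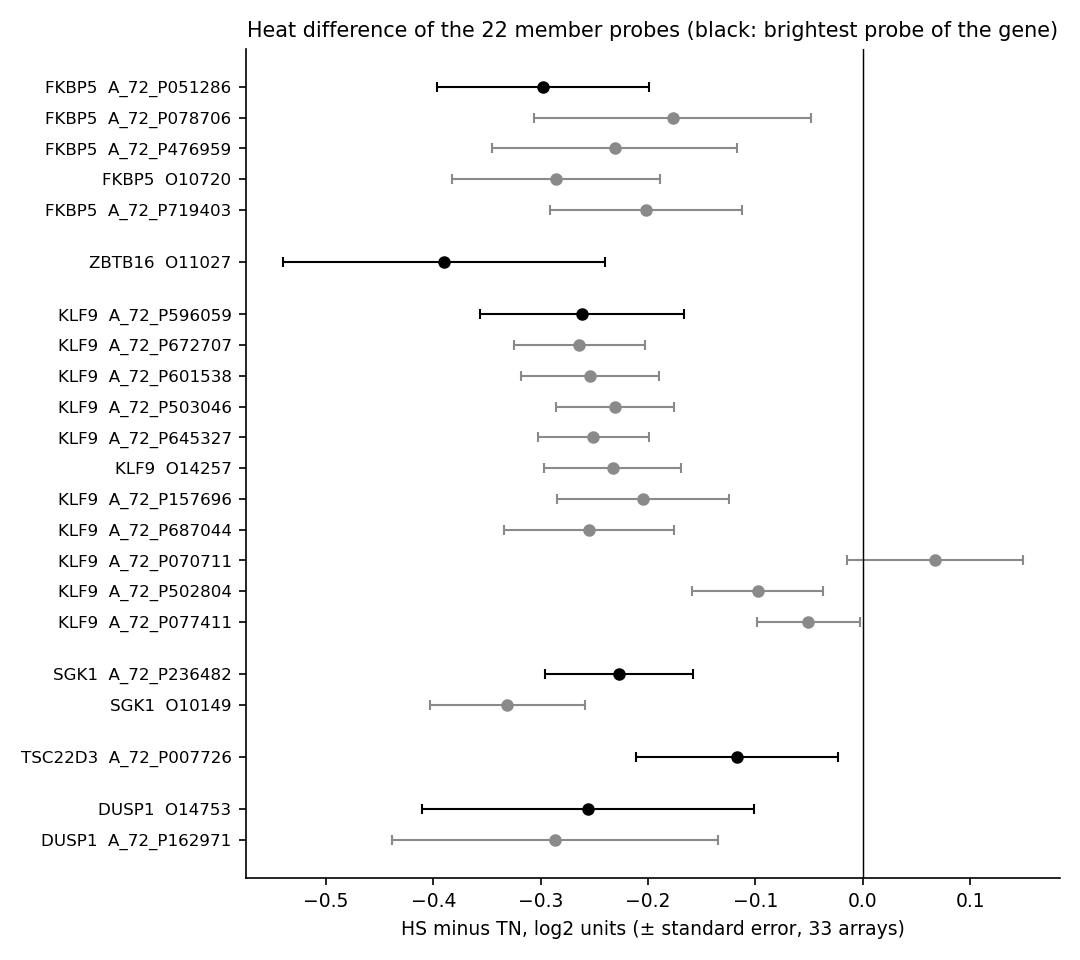
HS minus TN difference in log2 units (points) with its standard error (bars) for each of the 22 member probes, from the fit of genetic group and temperature over 33 arrays, with the brightest probe of each gene in black. All points but that of KLF9 A_72_P070711, at 0.067, lie left of 0.

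Within the genetic groups, 17 of 18 differences of the brightest probes were below 0, and 60 of 66 over all member probes. The 6 above 0 were DUSP1 O14753, FKBP5 A_72_P078706 and FKBP5 A_72_P719403 in LW, KLF9 A_72_P077411 in CR and KLF9 A_72_P070711 in LW and F1. The TN and HS arrays of a genetic group did not overlap in 1 of the 18 cases and in 4 of the 66, against 0.612% over all probes and the same 3 genetic groups, and nothing is read from this because the rule used this contrast. These 4 were SGK1 A_72_P236482 and KLF9 A_72_P645327 in F1, and SGK1 O10149 and KLF9 O14257 in LW. All 4 had the HS arrays lower, as did 0.234% of all probes in LW and 0.23% in F1.

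FKBP5 differed by -0.14 in LW, -0.28 in CR and -0.48 in F1 (SE 0.17 each). In LW TN the 5 arrays read 10.41, 10.13, 10.24, 10.10 and 10.01, against 9.72 to 10.71 with a median of 9.96 in LW HS. In CR TN they read 10.22, 10.77, 10.12, 10.27 and 9.89, against 9.77 to 10.18 with a median of 9.98 in CR HS. F1 TN ranged from 10.17 to 10.85 with a median of 10.29, while F1 HS read 10.38, 10.13, 9.60, 9.97 and 9.30. Thus 4 of the 5 F1 HS arrays were below all F1 TN arrays, 3 of 6 were in LW and 2 of 6 in CR. Without LW HS 3 the LW difference was -0.27 (SE 0.16). The CR difference was smaller without CR TN 2, at 10.77. The direction in LW depended on the probe. A_72_P078706 gave 0.13 (SE 0.22) there, A_72_P719403 0.071 (SE 0.15), A_72_P476959 -0.038 (SE 0.20) and O10720 -0.13 (SE 0.17). In CR these 4 probes gave -0.43 to -0.35 and in F1 -0.37 to -0.24.

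ZBTB16 differed by -0.32 in LW, -0.29 in CR and -0.56 in F1 (SE 0.27 each). F1 HS read 9.58, 8.53, 8.32, 8.64 and 7.90, so 4 of 5 arrays were below the lowest F1 TN array, 8.74. LW TN read 8.78, 9.24, 8.45, 8.79 and 9.17, and LW HS ranged from 7.85 to 9.78. In CR no HS array lay below the lowest TN array, 8.31. LW HS 3 set the highest LW HS value, and without it the LW difference was -0.56.

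On its brightest probe KLF9 had its largest difference in LW, -0.49, with -0.21 in CR and -0.091 in F1 (SE 0.16 each). LW TN read 10.93, 11.90, 10.82, 10.74 and 10.82, and 5 of 6 LW HS arrays lay below all of them, at 10.25 to 10.59. The sixth was LW HS 3 at 11.02. Without LW TN 2 the LW difference was -0.28 (SE 0.13), and without LW HS 3 it was -0.58. The CR difference of the brightest probe was smaller without CR TN 1, at 11.33, and little of its F1 difference was left without F1 TN 1, at 11.24. Other probes differed more in F1. The 4 neighbouring probes that share sequence gave -0.32 to -0.26 there and A_72_P687044 gave -0.24, each with 5 of 5 HS arrays below the TN mean. A_72_P157696 gave -0.11 in F1, with 3 of 5 below. O14257, which does not overlap the brightest probe, separated LW fully, with TN at 9.03, 9.04, 9.02, 9.11 and 9.15 and HS at 8.21 to 8.87. On that probe CR differed by -0.011 (SE 0.099). The order of the genetic groups for KLF9 depended on the probe. A_72_P157696 kept the order of the brightest, with -0.35 in LW, -0.15 in CR and -0.11 in F1 (SE 0.14 each). A_72_P645327 was furthest below 0 in F1, at -0.32, with -0.26 in LW and -0.17 in CR (SE 0.091 each). So was A_72_P601538, at -0.29 in F1, -0.25 in LW and -0.22 in CR (SE 0.11 each).

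SGK1 differed by -0.13 in LW, -0.21 in CR and -0.34 in F1 (SE 0.12 each). The LW difference was larger without LW HS 2, at 8.40. In F1 the TN arrays lay between 7.87 and 8.49 and the HS arrays read 7.71, 7.83, 7.85, 7.73 and 7.5, with no overlap. The second probe, O10149, gave another order, with -0.48 in LW, -0.30 in CR and -0.22 in F1 (SE 0.12 each). On O10149, LW TN read 7.83, 8.06, 7.87, 7.62 and 7.80 and LW HS lay at 7.17 to 7.62, the nearest pair being equal to 2 decimals. The order of the genetic groups for SGK1 thus depended on the probe.

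TSC22D3 differed by -0.17 in LW, -0.095 in CR and -0.085 in F1 (SE 0.17 each). In CR, TN read 11.03, 9.83, 10.05, 10.25 and 10.01, and all 6 HS arrays, at 10.23 or less, lay below the TN mean that CR TN 1 raised. The direction in CR rested on CR TN 1, and the CR median was 10.05 in TN and 10.14 in HS. In F1 the direction rested on F1 HS 3, the lowest F1 HS array at 9.48. Without LW TN 2 the LW difference was -0.017. DUSP1 was the exception among the brightest probes, at 0.029 in LW, -0.44 in CR and -0.36 in F1 (SE 0.27 each). LW TN read 11.88, 11.31, 12.22, 12.66 and 12.39, and all but LW TN 2, at 11.31, lay within the LW HS range of 11.43 to 12.84. Without LW TN 2 the LW difference of DUSP1 was -0.17, and without LW HS 3 it was 0.10. Its direction in LW also depended on the probe. The second DUSP1 probe, A_72_P162971, gave -0.15 (SE 0.27) there, with 4 of 6 HS arrays below the TN mean.

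**Figure D3:**
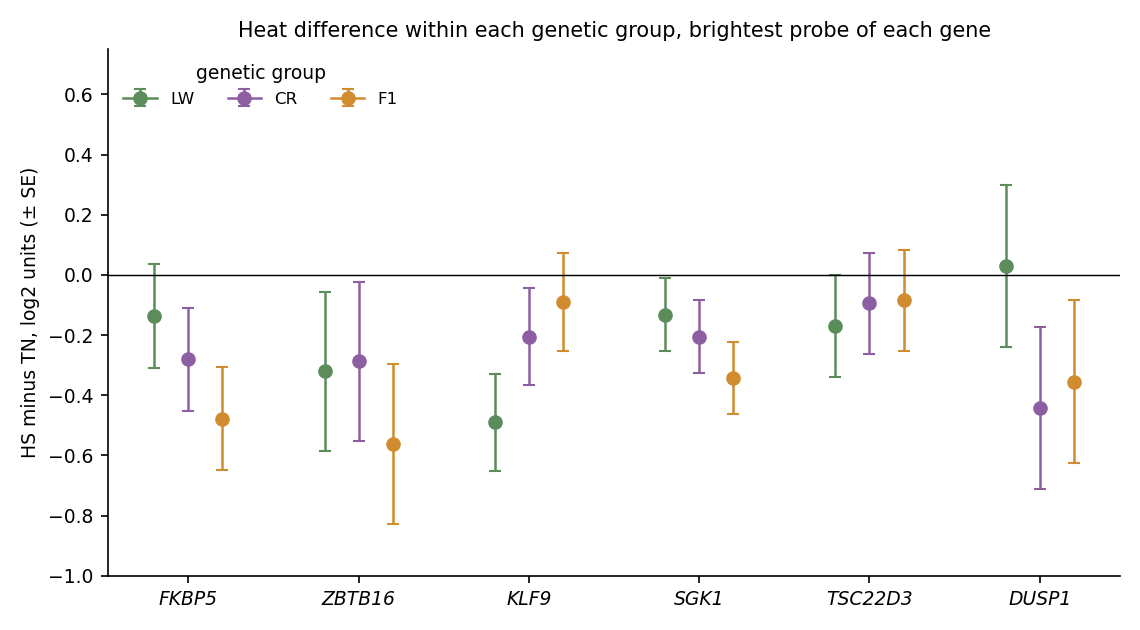
HS minus TN difference of the brightest probe of each gene in log2 units within LW, CR and F1 pigs (points) with standard errors (bars), 5 or 6 arrays per group. DUSP1 in LW, at 0.029, is the only point above 0.

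Whether the heat difference varied with genetic group was tested with the interaction F-test of limma. It passed the adjusted threshold for 0 of 22 member probes, against 0% of all 45667 probes. At an unadjusted p under 0.05 it was 1 of 22, against 4.25% of all probes. That probe was KLF9 O14257, with an unadjusted p of 0.0155 and an adjusted p of 0.926. The different sizes in LW, CR and F1 given above were therefore not shown to differ from each other. When the 6 group means of each gene were put in order, none of the 30 gaps between neighbours exceeded the larger SD of the pair. For FKBP5 and ZBTB16 the order began with F1 TN, CR TN and LW TN, for KLF9 with LW TN, CR TN and F1 TN, and for SGK1 with F1 TN, LW TN and CR TN. For these 4 genes every TN mean lay above every HS mean. For TSC22D3 the 2 CR groups came at the top (10.23 in CR TN and 10.14 in CR HS), and for DUSP1 LW HS (12.12) lay above LW TN (12.09).

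The genetic groups were compared over both temperatures, a contrast that the choice of genes did not use. No member probe passed the adjusted limma threshold in any of the 3 comparisons. For LW against CR it was 0 of 22, against 6.65% of all probes, with 6 at an unadjusted p under 0.05 (18.7% of all). For F1 against LW it was 0 of 22, against 1.48% of all probes, with 1 unadjusted (13.9% of all). For F1 against CR it was 0 of 22, against 6.86% of all probes, with 7 unadjusted (21.8% of all).

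TSC22D3 came nearest in LW against CR. Its mean was 9.83 ± 0.30 in LW, 10.18 ± 0.31 in CR and 9.90 ± 0.24 in F1 (SD, n = 11 each). The LW minus CR difference was -0.35 (SE 0.12, limma adjusted p 0.0622) and the F1 minus CR difference -0.30 (SE 0.12, limma adjusted p 0.116). The LW minus CR difference passed without LW TN 2 or without CR TN 2, with slide as a random block and with array weights.

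FKBP5 gave a split result by probe. On the brightest probe the groups were level, at 10.10 ± 0.28 in LW, 10.10 ± 0.28 in CR and 10.14 ± 0.41 in F1. The F1 minus CR difference there was 0.011, with a 95% interval of -0.24 to 0.26. On the 4 open-frame probes whose sequences are given above, F1 exceeded CR by 0.25 to 0.48 and LW exceeded CR by 0.19 to 0.33. A_72_P476959 averaged 8.31 ± 0.32 in LW, 8.01 ± 0.40 in CR and 8.47 ± 0.35 in F1, an F1 minus CR difference of 0.43 (SE 0.14, limma adjusted p 0.0552). A_72_P078706 gave 0.48 (SE 0.16, limma adjusted p 0.0586). Neither passed. Both did so without LW HS 3, F1 HS 3 or CR TN 2, with array weights and with slide as a block, and 1 of them did so without F1 TN 3 or CR TN 4, with normexp or with row on the slide as a block. The 4 probes varied together across arrays (Pearson's r 0.50 to 0.95), and the brightest probe followed them with r 0.67 to 0.83.

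KLF9 A_72_P645327 had the next lowest adjusted p in F1 against CR, -0.18 (SE 0.064, limma adjusted p 0.0742). Its mean was 9.68 ± 0.22 in LW, 9.83 ± 0.16 in CR and 9.67 ± 0.20 in F1, and it passed without LW HS 3 or CR TN 5 and with LW HS 3 as Creole. In F1 against LW the lowest adjusted p was 0.316, for KLF9 A_72_P070711. For ZBTB16, SGK1 and DUSP1, no probe had an adjusted p under 0.4 in any of these comparisons.

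**Figure D4:**
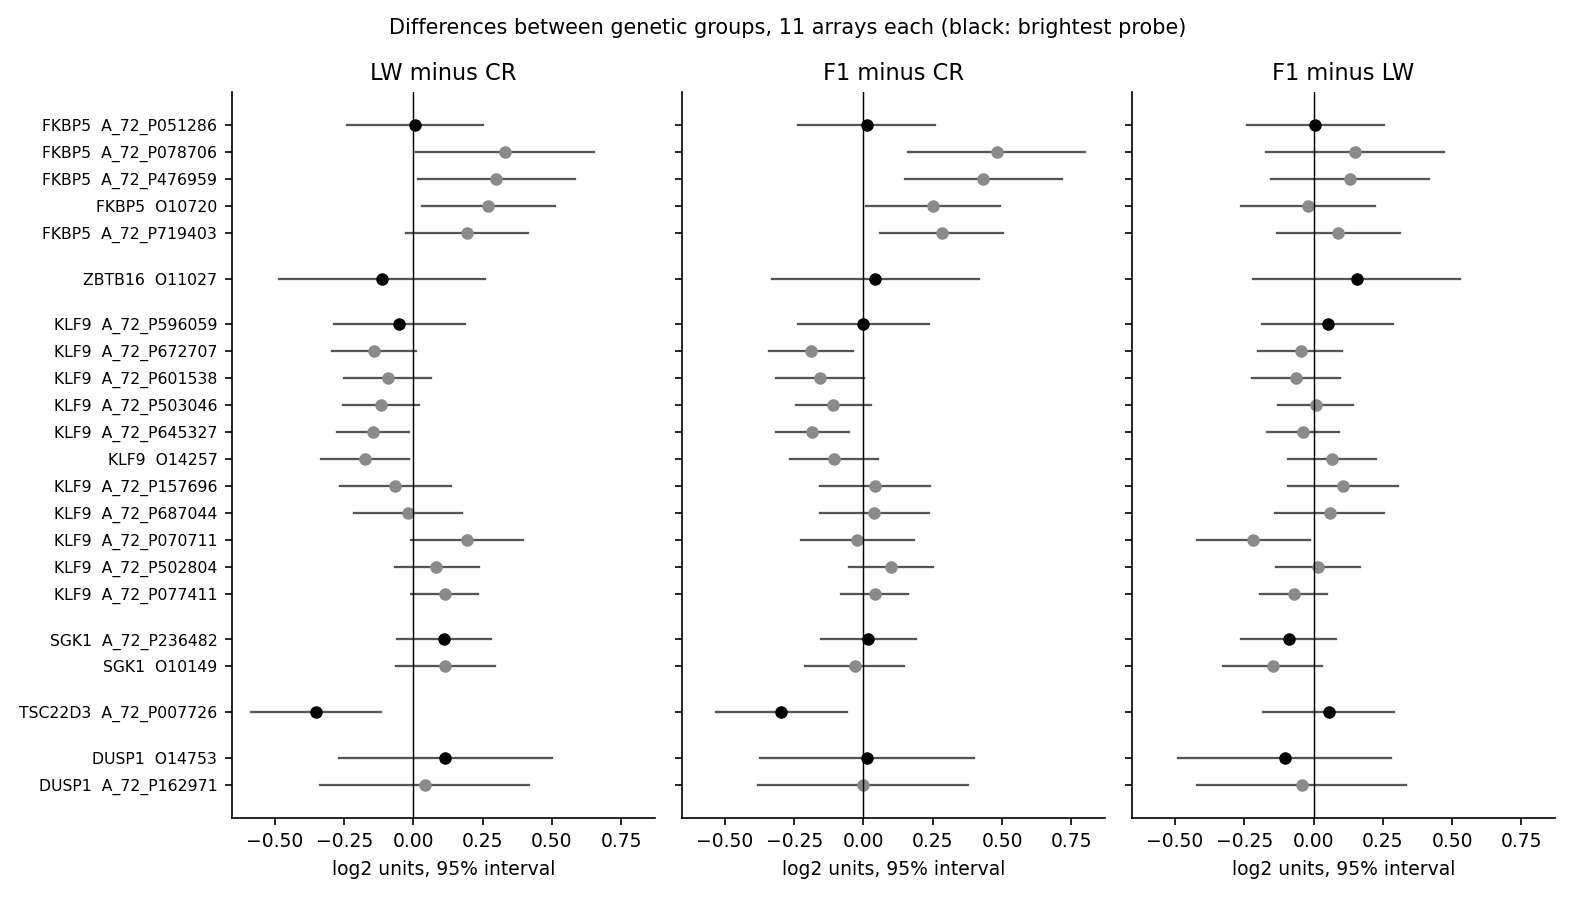
Differences between genetic groups in log2 units (points) with 95% intervals (bars) for the 22 member probes, from 11 arrays per group, with the brightest probe of each gene in black. The 4 other FKBP5 probes lie at 0.25 to 0.48 in F1 minus CR while the brightest lies at 0.011, and TSC22D3 lies at -0.35 in LW minus CR.

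Slide was tested as a batch with limma. KLF9 A_72_P596059 (adjusted p 0.0136) and A_72_P601538 (adjusted p 0.0229) passed, 2 of 22 member probes against 14.7% of all probes, with 4 at an unadjusted p under 0.05 (27.7% of all). All slides held TN and HS arrays, so the HS minus TN difference could be taken on each, after the mean of each genetic group was removed. FKBP5 was below 0 on 5 of 5 slides (-0.51 to -0.14), KLF9 on 5 (-0.74 to -0.02) and SGK1 on 5 (-0.44 to -0.05). ZBTB16 was below 0 on 4 (-0.91 to 0.38), TSC22D3 on 3 (-0.53 to 0.17) and DUSP1 on 2 (-1.03 to 0.60). Slide 1 held only 1 TN and 2 HS arrays. For KLF9 these read 10.93 in TN and 11.02 and 10.92 in HS, so the sign of -0.02 there depended on removing the genetic-group means. Row on the slide was tested in the same way, an alternative chosen after seeing the data. Row 1 held 8 TN and 7 HS arrays with 77.0% to 82.2% of spots well above background, and row 2 held 8 TN and 10 HS arrays with 73.5% to 79.1%. Row 2 minus row 1 passed the adjusted limma threshold for 0 of 22 member probes, against 0% of all probes, with 1 at an unadjusted p under 0.05 (8.61% of all). With row in the fit the median HS minus TN difference of the 22 probes was -0.25.

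To see whether the genes varied together beyond the groups, group means were removed and Pearson's r was taken over the 33 arrays for the 15 pairs of genes. Two-sided permutation tests with 100000 resamples were adjusted over 21 relations, which include those with HBB below. By this test 7 of 15 pairs passed. FKBP5 and ZBTB16 had the highest r, 0.73 (Spearman's rho 0.49, permutation adjusted p 0.00021 and 0.0306). Their r was 0.61 without the 2 arrays farthest from the FKBP5 median, 0.64 without LW HS 3 and 0.68 with slide means removed. Within slides 2 to 5 it ranged from -0.01 to 0.92. ZBTB16 and KLF9 had r 0.59 (rho 0.58, permutation adjusted p 0.00301 and 0.00777). That pair kept r 0.55 without the farthest 2 arrays, 0.57 with slide means removed and 0.32 to 0.79 within slides. FKBP5 and KLF9 had r 0.49 (rho 0.55, permutation adjusted p 0.0239 and 0.0111), which was 0.42 without the farthest 2 arrays and then did not pass (0.147). Nor did that pair pass with slide means removed (r 0.32, permutation adjusted p 0.202) or without LW HS 3 (r 0.39, permutation adjusted p 0.0919).

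DUSP1 ran against TSC22D3, with r -0.57 (rho -0.47, permutation adjusted p 0.00301 and 0.0306). It was negative within slides 2 to 5, from -0.74 to -0.52. Without the 2 arrays farthest from the TSC22D3 median r was -0.39 and did not pass (adjusted p 0.158), so the call rested on those arrays. DUSP1 also ran against KLF9 (r -0.42, rho -0.36, permutation adjusted p 0.0443 and 0.146) and with SGK1 (r 0.41, rho 0.44, permutation adjusted p 0.0486 and 0.0488). KLF9 and TSC22D3 had r 0.45 but rho 0.22 (permutation adjusted p 0.0428 and 0.442). Each of these 3 pairs failed without its 2 farthest arrays, with r of -0.26, 0.36 and 0.24 and adjusted p of 0.491, 0.196 and 0.491. Each also failed without LW HS 3, with adjusted p of 0.0838, 0.0838 and 0.0809. With slide means removed KLF9 and TSC22D3 passed (r 0.53, permutation adjusted p 0.00766). DUSP1 did not pass there with KLF9 (r -0.33, permutation adjusted p 0.202) or SGK1 (r 0.42, permutation adjusted p 0.0585). With LW TN 2 and CR TN 1 left out, a choice made after seeing the data, KLF9 and TSC22D3 had r -0.07 and FKBP5 and KLF9 had r 0.76.

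**Figure D5:**
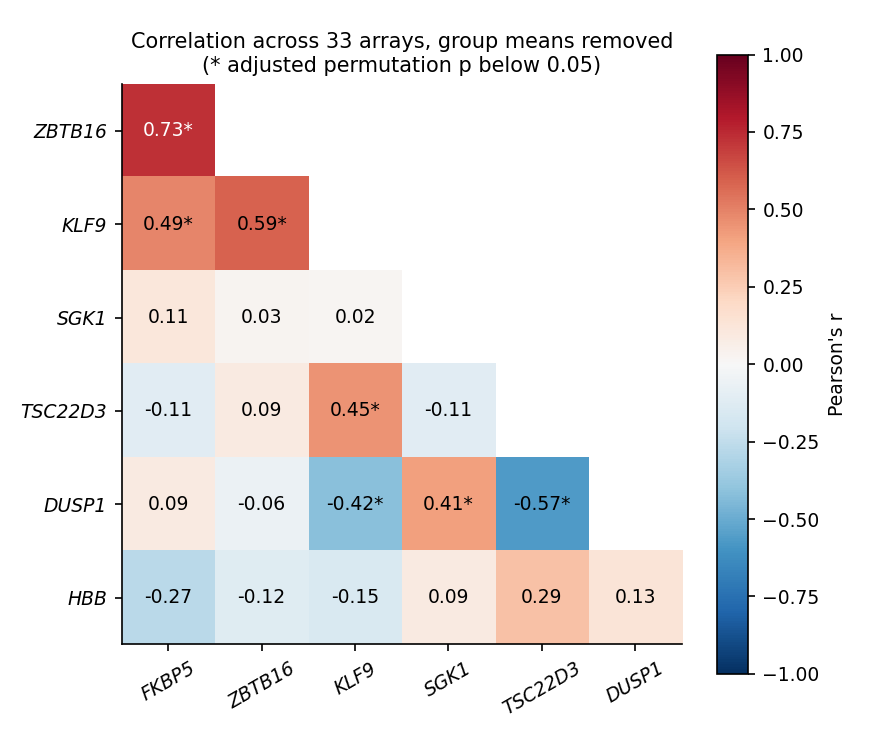
Pearson's r between the brightest probes of the 6 genes, and of each with HBB, across 33 arrays after group means were removed, with stars for a permutation p adjusted over 21 relations under 0.05. FKBP5, ZBTB16 and KLF9 are positively related (0.49 to 0.73), TSC22D3 and DUSP1 negatively (-0.57), and no gene passes with HBB.

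Probes of the same gene were compared in the same way, to see how far they track each other. Of 67 pairs, 44 passed after adjustment over the 67. The 2 DUSP1 probes followed each other closely (r 0.97), and all 10 FKBP5 pairs passed (0.50 to 0.95). Of the 55 KLF9 pairs 33 passed, with r from -0.49 to 0.90, and the 4 neighbouring probes that share sequence had r 0.78 to 0.90. The 2 SGK1 probes did not track each other (r 0.17, permutation adjusted p 0.431), although each was lower in HS on 16 of 17 arrays.

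The named genes outside the 6 whose brightest probe followed each gene most closely were found among 10182 genes over the same 33 arrays, with group means removed. These r are descriptions of the largest of many values. They were NABP1 (0.75), ATP2A2 (0.74) and FOXO1 (0.74) for FKBP5, and FOXO1 (0.69), LMO3 (0.66) and EFHD2 (0.62) for ZBTB16. For KLF9 they were MEF2A (0.82), FERMT2 (0.80) and REV1 (0.78), and for SGK1 C14H10orf10 (0.64), MTTP (0.62) and SMPX (0.60). TSC22D3 was followed by RBPMS (0.88), PACSIN3 (0.87) and NACC2 (0.86), and DUSP1 by BTG2 (0.81), KY (0.73) and FOS (0.71). FOXO1, a forkhead transcription factor, was thus among the closest of both FKBP5 and ZBTB16. BTG2 and FOS, like DUSP1, are immediate early genes.

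No gene on the receptor side of the pathway passed in HS minus TN. Of 7 genes for the receptors and hormone availability 6 were measured, and the median was 0.065. Of these, 0 passed the adjusted limma threshold in HS minus TN (0.0219% of all probes). At an unadjusted p under 0.05 it was also 0 (8.77% of all). NR3C1, the glucocorticoid receptor, went from 9.84 ± 0.12 in TN to 9.92 ± 0.19 in HS, a difference of 0.07 (SE 0.05, limma adjusted p 0.707). NR3C2, the mineralocorticoid receptor, gave 0.06 (SE 0.05). HSD11B1, which regenerates active glucocorticoid within cells, was the lowest at -0.02 (SE 0.09), and ABCB1, a pump that exports steroids, the highest at 0.11 (SE 0.11). NR3C1 did differ between genetic groups, lower in LW than CR by a difference of -0.21 (SE 0.06, limma adjusted p 0.0275). That call was lost with LW HS 3 as Creole (adjusted p 0.0862) and in 4 of 33 fits that left out 1 array, those without CR HS 1, CR HS 2, LW HS 4 or LW HS 5 (up to 0.0598).

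Among the receptor's chaperones and cofactors 14 of 15 were measured, 0 passed and the median was 0.033. At an unadjusted p under 0.05 there was 1 of 14 (FKBP4), against 8.77% of all probes. HSP90AA1 was the highest at 0.14 (SE 0.11) and EP300 the lowest at -0.03 (SE 0.07). HSP90AB1 gave 0.05 (SE 0.03) and the co-chaperone PTGES3 0.10 (SE 0.05). FKBP4, which competes with FKBP5 for the receptor complex, gave 0.10 (SE 0.05, limma unadjusted p 0.043 and adjusted p 0.55). FKBP4 was lower in LW than CR, with a difference of -0.28 (limma adjusted p 0.00148). NR3C1 and FKBP4 were 2 of 10 genes past the adjusted limma threshold in LW against CR among the 99 measured genes of all the lists used here, against 6.65% of all probes. ADAMTS1, NEUROD1, POU1F1, GHRHR and KDR were among the others. In F1 against CR 8 of 99 passed, against 6.86% of all probes, and in F1 against LW 5 of 99, FKBP4 among them, against 1.48%.

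Other genes known as glucocorticoid-induced were mostly lower in HS without passing. Of 32 listed genes 26 were measured, 20 had a difference below 0 (76.9%, beside 40.6% of all named genes), and the median was -0.11, beside 0.018 over all named genes. None passed the adjusted limma threshold (0 of 26), and at an unadjusted p under 0.05 there were 5 of 26, all lower, against 8.77% of all probes. These were PDK4, which restrains glucose oxidation, at -0.73 (SE 0.22), the lowest of the list, BCL6 at -0.29, TXNIP at -0.29, KLF15 at -0.16 and DDIT4 at -0.12. PER1, a clock gene with glucocorticoid response elements, was the highest at 0.06 (SE 0.10). In the list of genes tied to feedback in corticotrophs 9 of 11 were measured, 0 passed and the median was 0.093. At an unadjusted p under 0.05 there were 2 of 9 (NR4A2 and NR4A3, both higher), against 8.77% of all probes. POMC read 19.01 in both TN and HS with a difference of 0.00 (SE 0.03). Its probe ranked 5 to 16 from the top of the 45667 on every array, near the array maximum of 19.36. Quantile normalization gives all arrays the same values at these ranks, so a difference of 0.00 says little about POMC. CRHR1, the receptor for corticotropin-releasing hormone, gave 0.15 (SE 0.09). NR4A3, an orphan nuclear receptor, was the highest at 0.57 (SE 0.21) and ANXA1 the lowest at -0.19 (SE 0.11). ANXA1 also stands among the induced genes.

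Markers of other cells were examined beside these results. HBB, the haemoglobin beta chain of red cells, fell by 1.15 in HS (SE 0.21, limma adjusted p 0.0301), from 10.40 ± 0.64 to 9.30 ± 0.72. It was the only listed gene measured under its symbol to pass. A_72_P159746, a probe described as haemoglobin subunit alpha that carries no symbol and so was not counted in the lists, fell by 1.30 (SE 0.21, limma adjusted p 0.00919). It ranged from 14.80 to 16.87 in TN with a median of 16.10, and from 13.35 to 15.85 in HS with a median of 14.58. That call was lost with array weights (adjusted p 0.0669) and kept in all 33 fits that left out 1 array. The other 2 haemoglobin probes without a symbol did not pass. A_72_P198167, also described as the alpha subunit, gave 0.00 (SE 0.05, limma adjusted p 0.993), and A_72_P055481, described as the beta subunit, gave -0.85 (SE 0.21, limma adjusted p 0.14). The HBB call was lost with array weights or without the genetic-group term (adjusted p up to 0.135) and in 14 of 33 fits that left out 1 array (up to 0.0683). Of 14 erythroid genes 10 were measured, 9 were below 0 (beside 40.6% of all named genes), and their summed intensity was 4620 to 9350 in TN and 4140 to 6110 in HS. HEMGN was the highest at 0.10 (SE 0.07). After removal of group means HBB was not related to any of the 6 genes by the permutation test (0 of 6 relations, r -0.27 to 0.29). With LW TN 2 and CR TN 1 left out, KLF9 and HBB had r -0.50 (permutation adjusted p 0.0197). Its part in their HS minus TN differences was not tested.

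Endothelial and folliculostellate markers, taken as a list, were also lower on average. All 8 were measured, 7 were below 0 (beside 40.6% of all named genes), 0 passed (2 of 8 unadjusted, VWF and PECAM1, both lower, against 8.77% of all probes), and the median was -0.15, from VWF at -0.40 (SE 0.13) to ALDH1A1 at 0.13 (SE 0.07). Their summed intensity was 31400 to 59900 in TN and 30800 to 50000 in HS. The endothelial genes ran from VWF to TEK at -0.05 (SE 0.14). Of the folliculostellate markers, S100B gave -0.05 (SE 0.10) and FXYD6 -0.17 (SE 0.11), while ALDH1A1 was higher. Of 18 leukocyte genes 13 were measured, and 10 were below 0 (76.9%, beside 40.6% of all named genes). Of the 13, 0 passed and 1 had an unadjusted p under 0.05 (CD163, lower), against 8.77% of all probes. The median was -0.075, from CD163 at -0.43 (SE 0.13) to CD79B at 0.21 (SE 0.22). The leukocyte sums were 4980 to 6760 in TN and 4880 to 6760 in HS. The T-cell marker CD3E was well above background on 31 of 33 arrays, at 5.85 in TN. For the anterior lobe 11 of 12 were measured and 0 passed, with 1 of 11 unadjusted (PITX1, higher), against 8.77% of all probes. The anterior-lobe median was 0.012, from GHRHR at -0.11 (SE 0.08) to TSHB at 0.36 (SE 0.49). GH1, PRL and CGA, like POMC, lay near the array maximum (median ranks 8, 21 and 10 from the top), so the near-zero differences of these 4 genes say little. For the posterior and intermediate lobes all 6 were measured and 0 passed, with 1 of 6 unadjusted (NR4A2, higher), against 8.77% of all probes. Their median was -0.036, from PCSK2 at -0.30 (SE 0.27) to NR4A2 at 0.48 (SE 0.20). The part of these cell types in the differences of the 6 genes was not tested.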

How the data were processed

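Cy3-labelled RNA of each pituitary was hybridised to an Agilent porcine 1-colour array. Per the file headers the scanner files hold pixel intensity from Agilent Feature Extraction 10.10.1.1. The authors took the median pixel intensity without background correction, quantile-normalized it and deposited log2 values for 45667 probes, of 60305 on the array, with the filter on expressed probes not stated in the sources used here. These deposited log2 values were used as given. The scanner intensities gave the marks for spots well above background (73.5% to 82.2% of spots per array) and the alternatives. Gene symbols came from the array design or from a pig gene table (24294 probes named).

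Differences were tested two-sided with limma 3.58.1 in R 4.3.3 (data.table, version 1.17.8), with genetic group and temperature as fixed effects, or 1 mean per group for the interaction and within-group values. Benjamini-Hochberg adjustment ran over the 45667 probes, with a threshold of 0.05. The procedure was tested on simulated data. Permutation tests used Python 3.11.15 (numpy 2.4.6, pandas 2.3.3, scipy 1.17.1, matplotlib 3.10.9). The study's model also held pen, day of slaughter and parents as random effects, which are absent from these labels and were left out. With 5 or 6 arrays per group, array number limits the precision.

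The members and the gene lists were chosen with earlier results of these data known. Every member probe was reported. The brightest stands for its gene, with another named where a breed or interaction test passed or its HS minus TN sign differed. The 3 named genes closest to each member by r were named, as were fixed pathway genes, those past the threshold in HS minus TN and each list's lowest and highest. Probes chosen for other reasons were singled out after their values were seen. Alternatives were slide as a fixed or random block, row on the slide as a fixed block, scanner processed intensity scaled to the 75th percentile, normexp with an offset of 50, filters on dim probes, LW HS 3 as Creole or left out, array weights, no genetic-group term, and leaving out each array in turn.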

Additional observations from a re-analysis of the deposited data

Results flagged for a closer look

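Each group of 5 or 6 arrays was examined for a stray array in the brightest probe of each gene, by the gap between an extreme array and its neighbour as a share of the group's range. Of 36 groups, 3 had one past Dixon's 95% critical value for a group of its size, where chance gives about 1 in 20. FKBP5 was highest in F1 TN 1, at 10.85 beside 10.35 for the next array (share 0.738). KLF9 was highest in LW TN 2, at 11.90 beside 10.93 (share 0.84). DUSP1 was lowest in CR TN 1, at 11.46 beside 12.32 (share 0.749). All 3 arrays were on slide 2, and the cause was not tested.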

How the results depend on the processing

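The median HS minus TN difference of the 22 member probes stayed between -0.26 and -0.21 over 11 alternative settings and between -0.26 and -0.22 over the 33 fits that left out 1 array. The brightest probe of each gene kept its sign in all of these. Array weights gave -0.033 for TSC22D3, -0.24 for ZBTB16 and -0.35 for DUSP1, while processed intensity gave -0.48 for ZBTB16. The number of member probes past the adjusted threshold in HS minus TN, 0 in the fit reported above, was 5 with slide as a fixed block, 4 with slide as a random block, 3 with LW HS 3 left out and 1 with it as Creole, a count added after seeing the data. It was 0 to 3 over the fits that left out 1 array (3 without LW HS 3, 1 without F1 HS 3 and 1 without CR TN 5). Over all probes that comparison gave 10 calls, 92 with slide fixed and 58 with slide random.

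For LW against CR the count of 0 became 1 with slide random or array weights (TSC22D3 in both) and 1 with LW HS 3 as Creole (KLF9 A_72_P645327), and was 0 to 1 leaving out 1 array. For F1 against LW it became 1 with array weights (KLF9 A_72_P070711). For F1 against CR it became 2 with slide fixed or random, 1 with normexp, with LW HS 3 as Creole or with row on the slide as a fixed block (added after seeing the data), 3 with LW HS 3 left out and 3 with array weights, and was 0 to 3 leaving out 1 array. The interaction gave 0 under every setting run. Of the 7 correlated pairs, 2 passed without the 2 farthest arrays, 4 with slide means removed, 3 without LW HS 3 and 3 without LW TN 2 and CR TN 1, the last 2 chosen after seeing the data. The cause of these changes was not tested. No paired analysis was possible because replicate numbers follow only the order of the samples.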
